A study of Sus scrofa with 37 samples.

Results

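The genes described here are the 37 rows of the deposited pig count tables with Ensembl identifiers ENSSSCG00000018060 to ENSSSCG00000018096, the block of the mitochondrial genome, out of 25880 gene rows in all. The members were taken by identifier number, with earlier results of these data known. A table of gene names gave a symbol to 13 of them, all protein genes, and left 24 without one. RefSeq lists 2 ribosomal RNA, 22 transfer RNA and 13 protein genes for the pig mitochondrion. No source used here ties those names to the 24 unnamed identifiers, which are therefore given by identifier. Of the unnamed, ENSSSCG00000018061 and ENSSSCG00000018063 were far above the rest and are called the abundant pair. Another 11 had a median of at least 10 counts in a tissue and are described with them. The last 11 were below that level in both tissues.

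RNA had been sequenced from pigs to compare organs and islets of higher and lower islet density. According to the labels, 50 mg of the duodenal lobe was sampled at organ retrieval for each pancreas library, while islets were isolated and then floated in culture medium for 7 days. Counts were at hand for 17 pancreas libraries (8 High, 9 Low) and 18 from islets (8 High, 9 Low and 12AS51, whose density is not labelled). Libraries are named by animal code and tissue, and 16 animals had both tissues. The labels give no breed, age, sex or treatment, and do not say how density was measured. Of 15 animals with labelled libraries of both tissues analysed here, 11 had the same label in each and 4 had different ones. Animal 15LS30, analysed in pancreas only, is labelled Low there and High in islets. Islet samples from 15LS27 and from 15LS30 are not analysed here. The islet samples of 11KS28 and 12AS51 carry the source name pancreas, against their titles.

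Mitochondria keep a small circular genome of their own, present in many copies per cell. It is transcribed from both strands into long precursors, from which the individual RNAs are cut. The proteins it encodes are core subunits of the respiratory chain and of ATP synthase, and all other subunits come from the nucleus. In the beta cells of islets, ATP made by mitochondria from glucose closes the potassium channels that trigger insulin release. Acinar cells, the bulk of the organ, spend ATP on making and secreting digestive enzymes.

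Sequencing depth differed between groups. Islet libraries held 3237653 to 6702589 gene counts and High pancreas libraries 1855075 to 3922006. In the Low pancreas group 7 of 9 libraries held only 265000 to 536014 counts, and these are called the shallow libraries. They are 12FS135 and the 6 pancreas libraries of animals whose code begins with 14. Summed acinar markers stood at 12659 to 33328 scaled counts (CPM, rescaled so that every library sums to 1000000) in those 7 and at 108134 to 288007 in the other 10 pancreas libraries. Depth, animal code and acinar level thus moved together with the Low label, and their part in the results below was not tested. The islet label matched its markers: summed endocrine markers were 54918 to 97956 CPM in the 16 islet libraries whose source name says islets, against 350.4 to 15736 CPM in pancreas.

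The members took up a large and variable part of each library. Their share of all counts had its lowest value at 12.2%, median 26.8% and highest value 89.3% in the 18 islet libraries. In pancreas the lowest, median and highest were 9.02%, 21.9% and 38.8%. The widest 95% Wilson interval extended 0.183 percentage points to either side, so counting error was small beside these differences; it covers counting error only. Most of the range came from few libraries. The islets of 12AS51 stood at 89.3%, those of 15AS28 at 50.4% and those of 16CS60 at 12.2%, while the other 15 islet libraries lay between 21.97% and 28.8%. High pancreas ranged from 9.02% to 21.9%, the shallow Low libraries from 25.8% to 38.8%, and the deep Low libraries were at 20.0% and 21.9%. High and shallow Low pancreas did not overlap.

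**Figure D1:**
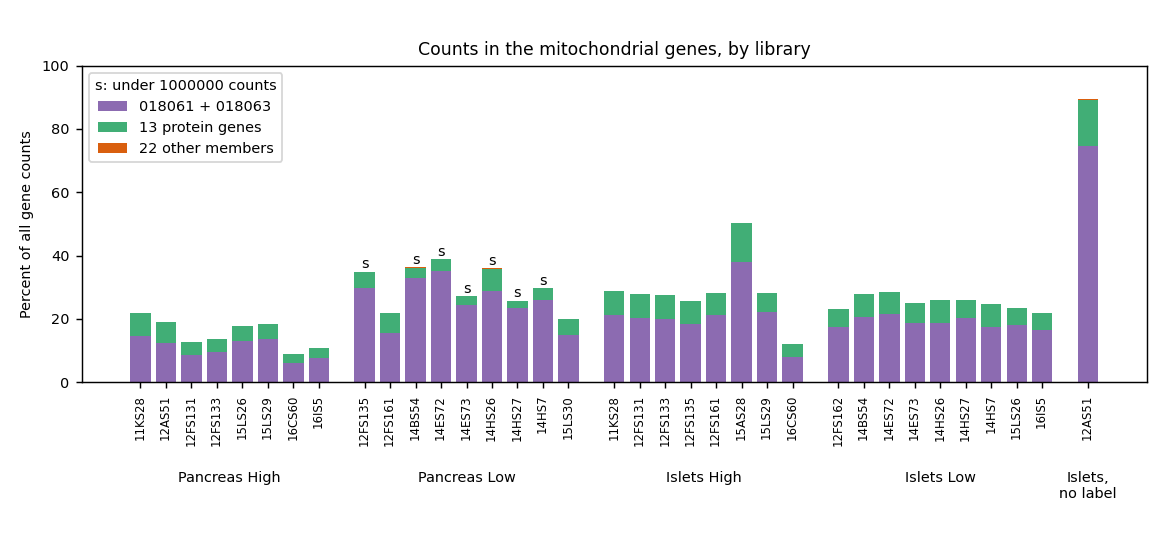
Percent of all gene counts (y axis) in the abundant pair, the 13 protein genes and the 22 other members, stacked for each of 35 libraries (x axis, animal codes by tissue and density label). The 12AS51 islets reach 89.3% and the 15AS28 islets 50.4%, and the shallow Low pancreas libraries, marked s, lie between 25.8% and 38.8%.

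The abundant pair made up most of this share. It took 7.84% to 74.6% of counts in islets, with a median of 20.1%, and 6.01% to 35.05% in pancreas, with a median of 15.0%. The 13 protein genes together took 4.34% to 14.7% in islets, with a median of 7.07%, and 2.40% to 7.41% in pancreas, with a median of 4.22%. Their share was higher in the islets than in the pancreas of the same animal in 16 of 16 animals. The share of all members was higher in islets in 10 of 16. The 22 other members stayed at or below 0.111% in every library. Members filled a median of 5.5 of the 10 places for the most counted genes in islets and 2 in pancreas, and 9 of 10 in the 12AS51 islets.

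The 12AS51 islet library was examined further because it bears on the comparison of tissues. It was the deepest of all, with 6702589 counts, but held 715938 counts outside the members. Scaled to those remaining counts, its endocrine markers summed to 79688 CPM, against 90952 to 117490 in the other islet libraries. Its acinar markers summed to 55.9 CPM on the same scale, within the 15.6 to 786 CPM of the other islets and far below the 284810 CPM of its own pancreas. Among its remaining counts, acinar markers were thus within the islet range, and endocrine markers below that range but far above the 1547 CPM of its own pancreas. Its source name says pancreas.

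Islets were compared with pancreas across all 35 libraries, and 26 of the 37 members passed the filter on low counts. By edgeR's quasi-likelihood test, 9 members were higher in islets, 2 were lower and 15 did not pass. Among all 12339 genes tested, 31.1% were higher and 31.5% were lower. The median log2 fold change was 0.62 over the 26 members, 1.14 over the 13 protein genes and -0.01 over all genes. In this fit, which has no animal block, the higher calls depended on 1 library. Without the 12AS51 islets, no member was called higher and 7 were called lower by edgeR, a setting in which COX1 came nearest to a higher call (log2 fold change 0.56, SE 0.26, adjusted p = 0.058). With the animal as a block, 2 were higher, ND1 and ND2, and 1 lower, ENSSSCG00000018073. Without animal 12AS51 the block gave 3 higher and 4 lower.

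The ND genes encode the membrane-bound core of complex I, which passes electrons from NADH to ubiquinone. ND1, at the ubiquinone entry site, measured 941 to 17897 CPM in islets with a median of 6391, and 479 to 4548 CPM in pancreas with a median of 2289. It was higher in the islets of 16 of 16 animals, and 4 islet libraries lay inside the pancreas range. The log2 fold change was 1.94 (SE 0.53, edgeR adjusted p = 0.0016) with all libraries and 0.82 (SE 0.33, adjusted p = 0.037) with the animal block. Without the 12AS51 islets it was 0.48 (SE 0.28, adjusted p = 0.13).

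ND2, a proton-pumping subunit, ranged over 2223 to 7937 CPM in islets (median 5566) and 1097 to 5787 CPM in pancreas (median 2286). It too was higher in the islets of 16 of 16 animals. The estimate on the log2 scale was 1.30 (SE 0.41, edgeR adjusted p = 0.0062), and 0.44 (SE 0.25, adjusted p = 0.13) without the 12AS51 islets. The other ND genes did not pass with all libraries. ND4, a second proton-pumping subunit, had 3701 to 12103 CPM in islets (median 5135) and 2489 to 10396 in pancreas (median 4024). ND5, the third, had 4399 to 10335 CPM (median 6184) and 3172 to 11487 (median 4717). Both were higher in islets in 12 of 16 animals, and their ranges overlapped almost fully.

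Of the remaining complex I genes, ND3 was higher in islets in 12 of 16 animals, ND4L in 9 and ND6 in 6. ND3 lay at 644 to 1914 CPM in islets (median 1008) and 419 to 1678 in pancreas (median 752). ND4L, whose reading frame overlaps that of ND4, lay at 288 to 1586 CPM (median 551) and 165 to 1385 (median 537). ND6, the protein gene carried on the opposite strand from the rest, lay at 1121 to 4224 CPM (median 1729) and 744 to 5695 (median 1845). The tissues overlapped for all 3, and with all libraries none of them passed. Leaving out the 12AS51 islets turned the ND4L estimate to -0.95 (SE 0.24, edgeR adjusted p = 0.00068) and ND6 to -1.07 (SE 0.29, adjusted p = 0.0014). In that setting the pancreas side still held the shallow libraries, which included the highest ND6 level of the organ. With those left out as well, ND4L was at -0.56 (SE 0.21, adjusted p = 0.020), ND6 at -0.30 (SE 0.21, adjusted p = 0.21) and ND3 at -0.18 (SE 0.23, adjusted p = 0.50).

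CYTB encodes cytochrome b, the mitochondrial subunit of complex III, which hands electrons on to cytochrome c. It measured 3438 to 11828 CPM in islets (median 5245) and 2103 to 6338 in pancreas (median 3011), and was higher in islets in 14 of 16 animals. The log2 estimate was 1.14 (SE 0.45, edgeR adjusted p = 0.027) with all libraries and 0.02 (SE 0.25, adjusted p = 0.95) without the 12AS51 islets.

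COX1, COX2 and COX3 form the catalytic core of complex IV, cytochrome c oxidase, where oxygen is reduced. COX1 ranged over 9064 to 33888 CPM in islets (median 15198) and 3593 to 10233 in pancreas (median 6510), and was higher in islets in 16 of 16 animals. Only the lowest islet library, that of 16CS60, fell inside the pancreas range. COX1 had a log2 fold change of 1.37 (SE 0.42, edgeR adjusted p = 0.0042). COX2, which holds the copper site that receives electrons, ranged over 3901 to 32261 CPM in islets (median 7172) and 1629 to 15111 in pancreas (median 4886). Its log2 fold change was 1.59 (SE 0.58, adjusted p = 0.017) with all libraries, and -0.22 (SE 0.30, adjusted p = 0.53) without the 12AS51 islets, which had its highest level. COX3 ranged over 2645 to 11744 CPM in islets (median 6551) and 2347 to 9897 in pancreas (median 5672) and did not pass. Once the 12AS51 islets and the shallow pancreas libraries were both left out, COX3 was lower in islets (log2 fold change -0.74, SE 0.24, adjusted p = 0.0059).

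ATP6 and ATP8 encode the mitochondrial subunits of ATP synthase, complex V, and their reading frames overlap. ATP6, part of the proton channel, had 5443 to 20445 CPM in islets (median 7103) and 1127 to 10511 in pancreas (median 4236). It was higher in islets in 15 of 16 animals, with a log2 fold change of 1.20 (SE 0.45, edgeR adjusted p = 0.018) with all libraries. Without the 12AS51 islets the value was 0.34 (SE 0.30, adjusted p = 0.33). ATP8, a small stabilising subunit, had 10.3 to 3892 CPM in islets (median 1367) and 11.9 to 1959 in pancreas (median 918). Its lowest values, far under the medians, came from 3 libraries described below, and it did not pass (log2 fold change 1.15, SE 0.60, adjusted p = 0.092).

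Of the abundant pair, ENSSSCG00000018061 ranged over 50254 to 434932 CPM in islets (median 116299) and 31435 to 131325 in pancreas (median 86346). ENSSSCG00000018063 ranged over 28176 to 311224 CPM in islets (median 83754) and 28691 to 221900 in pancreas (median 74987). Both genes overlapped widely between tissues. With all libraries ENSSSCG00000018061 was higher in islets (log2 fold change 1.47, SE 0.60, edgeR adjusted p = 0.030) and ENSSSCG00000018063 did not pass (0.62, SE 0.60, adjusted p = 0.38). Without the 12AS51 islets the values were -0.13 (SE 0.34, adjusted p = 0.76) and -1.02 (SE 0.37, adjusted p = 0.014). The ratio of the first to the second was 1.10 to 2.09 in islets (median 1.39) and 0.579 to 1.77 in pancreas (median 0.822), with overlap. Within pancreas it was 0.579 to 0.754 in the shallow libraries and 0.775 to 1.77 in the others.

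Among the other unnamed members, ENSSSCG00000018095 was higher in islets with all libraries (log2 fold change 3.34, SE 0.91, edgeR adjusted p = 0.0018), and so was ENSSSCG00000018062 (1.66, SE 0.60, adjusted p = 0.016). Their levels were low: ENSSSCG00000018095 had a median of 28.5 CPM in islets and 10.6 in pancreas, with 276 CPM in the 12AS51 islets. ENSSSCG00000018062 had medians of 29.2 and 13.3 CPM. ENSSSCG00000018073 (log2 fold change -2.97, SE 0.79, adjusted p = 0.0014) and ENSSSCG00000018068 (-1.64, SE 0.71, adjusted p = 0.043) were lower in islets. Those lower calls rested on the shallow pancreas libraries. Without these libraries ENSSSCG00000018068 was called higher in islets (log2 fold change 1.58) and ENSSSCG00000018073 had an estimate of 0.89 that did not pass. With all libraries, ENSSSCG00000018079 (0 to 19.8 CPM in islets, 0 to 13.5 in pancreas) did not pass, nor did ENSSSCG00000018088 (18.1 to 247 and 3.82 to 101 CPM). Their log2 fold changes were 0.48 (SE 0.54, edgeR adjusted p = 0.45) and 0.76 (SE 0.41, adjusted p = 0.0999).

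The 12AS51 islets and the shallow pancreas libraries were also left out together. By edgeR, 5 members were then higher in islets and 2 lower. All 5 were unnamed: ENSSSCG00000018062, ENSSSCG00000018068, ENSSSCG00000018077, ENSSSCG00000018090 and ENSSSCG00000018095, with log2 fold changes from 1.25 to 1.90. The lower members were COX3 and ND4L. ND1, ND2 and COX1 kept estimates above 0 (0.40, 0.26 and 0.51) without passing.

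**Figure D2:**
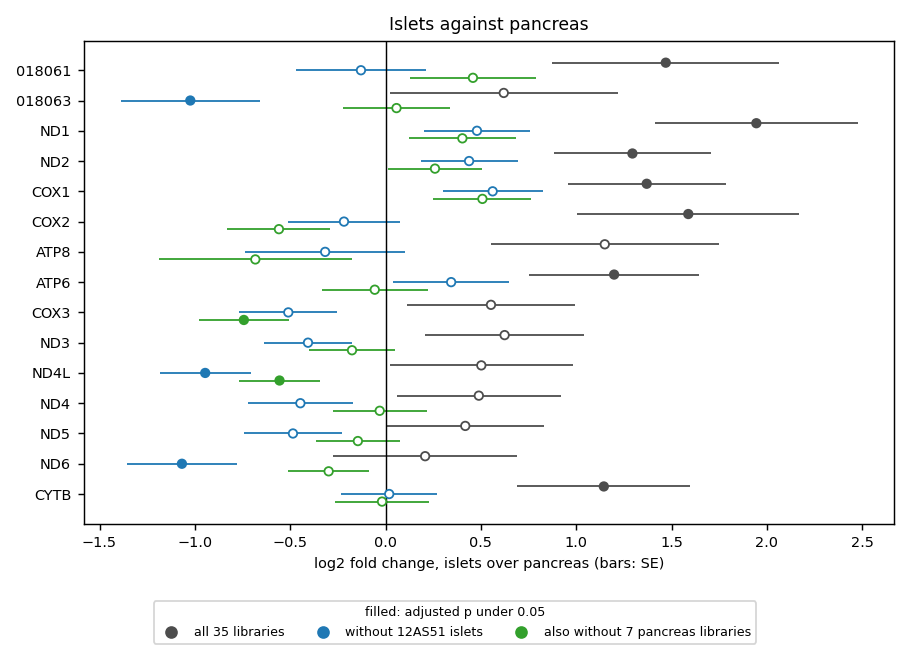
Log2 fold change of islets over pancreas (x axis, bars show the SE) for the abundant pair, labelled by the end of its identifiers, and the 13 protein genes (y axis), in 3 sets of libraries. ND1 is at 1.94 with all 35 libraries and at 0.48 without the 12AS51 islets, and ND6 moves from 0.21 to -1.07.

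Nuclear genes that build and serve this system were counted in the same fit, beside 31.1% of all genes higher and 31.5% lower. Of 25 tested nuclear subunits of complexes I, III, IV and V, 7 were higher in islets and 1 was lower. The higher ones included COX7A2 of complex IV (log2 fold change 1.33), ATP5PB of ATP synthase (0.96) and UQCRFS1, the Rieske protein of complex III (0.87). Of 14 genes for upkeep and transcription of mitochondrial DNA, 3 were higher and 6 lower. TFAM, which packages the genome and starts its transcription, was higher (0.99), while POLRMT, the mitochondrial RNA polymerase, was lower by 0.90 on the log2 scale, TWNK, the helicase, was at -1.37 and TFB1M, an rRNA methyltransferase, at -2.03. Of 23 genes of mitochondrial RNA processing, 3 were higher, among them LRPPRC, which stabilises mitochondrial messenger RNA (0.81), and 12 were lower, among them GTPBP3 (-2.04). Of 39 genes of the mitochondrial ribosome and translation, 3 were higher and 9 lower, with MRPL11 at 0.84 and OXA1L at -0.82. Of 13 regulators of mitochondrial biogenesis none was higher and 5 were lower by edgeR's test, among them PPARGC1A (-2.75) and MYC (-4.91). Without the 12AS51 islets and the shallow pancreas libraries, the nuclear subunits stood at 6 higher and 5 lower, beside 35.4% and 35% of all genes. The median log2 fold change of that list was 0.21 with all libraries and -0.02 in this setting.

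All 14 tested acinar markers were lower in islets and all 15 tested endocrine markers were higher. Of the other cell types, 5 of 6 duct, 5 of 5 leukocyte and 4 of 6 endothelial markers were lower and none was higher by edgeR. Of 8 fibroblast and stellate markers, 4 were higher and 4 lower. Summed duct markers were 7.61 to 101.6 CPM in islets and 414.7 to 4055 in pancreas, and leukocyte markers 4.33 to 30.8 and 71.7 to 228 CPM. No acinar or endocrine marker was at 0 in every library of a tissue. The tissues thus differ in their cells and in 7 days of culture. In bulk samples, fewer cells of a type and less RNA per cell cannot be told apart, and what either contributed to the members was not tested.

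Ratios between members of a library do not depend on the library total, and set some libraries apart. Levels are not compared between genes here, because no gene lengths of the build used for the counts were at hand. Each protein gene was expressed as a share of the counts of all 13. ND1 held 2.16% to 12.2% of them in islets and 1.60% to 6.93% in pancreas, with overlap. The lowest shares in each tissue were those of 16CS60 and 15AS28. With their libraries left out, ND1 held 8.28% to 12.2% in islets and 4.396% to 6.93% in pancreas. That these ranges no longer overlap follows from leaving out libraries low in ND1. COX1, COX3 and CYTB are given for the same reduced set. COX1 held 15.0% to 25.0% in islets and 10.3% to 20.6% in pancreas, and COX3 6.60% to 11.1% and 8.31% to 15.2%, both with overlap. CYTB held 6.31% to 8.56% and 6.15% to 8.76%, nearly the same range in each tissue.

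**Figure D3:**
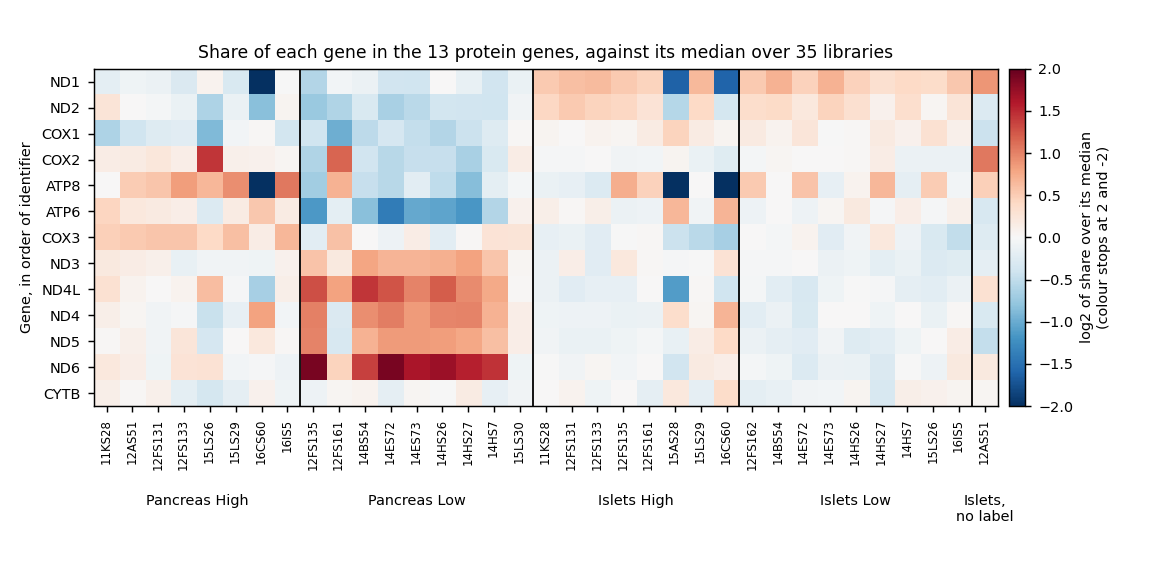
Share of each protein gene (rows) in the counts of all 13, as log2 over its median across 35 libraries (colour, stopping at 2 and -2), by library (columns, animal codes by tissue and density label). ATP8 and ND1 are low in both libraries of 16CS60 and in the 15AS28 islets, COX2 is high in 12FS161 and 15LS26 pancreas and the 12AS51 islets, and ND3 to ND6 are high in the 7 shallow Low libraries.

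ATP8 was nearly missing from 3 libraries. The pancreas of 16CS60 held 22 ATP8 counts beside 8504 of ATP6, its islets 34 beside 24092, and the islets of 15AS28 116 beside 66194. These are 0.259, 0.141 and 0.175 ATP8 counts per 100 of ATP6, while the other 32 libraries had 13.5 to 34.98. No library lay between. The same 3 libraries had the lowest ND1 relative to ND2, at 42.3 to 48.9 ND1 counts per 100 of ND2 against 73.8 to 225 in the others. They were also the libraries in which ENSSSCG00000018073 had no count, while every other library had at least 1.53 CPM. ENSSSCG00000018095 was at 0, 0.302 and 0.926 CPM in them and at 1.60 CPM or more elsewhere. ATP6 itself was not low in them: it made up 15.3% to 16.8% of protein gene counts, above the 3.97% to 14.2% of the other libraries.

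Both tissues of 16CS60 shared this profile, although one was a fresh piece and the other cultured for 7 days. No pancreas library of 15AS28 was analysed here. Both islet libraries and the pancreas library belong to High groups. Without animals 16CS60 and 15AS28, edgeR gave 10 members higher and 2 lower in islets, and ATP8 passed with a log2 fold change of 1.20 (adjusted p = 0.037). That fit kept the 12AS51 islets, which had the highest ATP8 level, 3892 CPM. No fit left out these animals and the 12AS51 islets together. Over all animals with both tissues, ATP8 was higher in islets in 9 of 16. DNA sequence, read alignment and counting options were not at hand, and their part in the low ATP8 counts was not tested.

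COX2 stood high in a different set of 3 libraries. The pancreas of 15LS26 had 261 COX2 counts per 100 of COX1, that of 12FS161 had 232 and the islets of 12AS51 had 147. The other 32 libraries had 38.8 to 88.8. The same 3 libraries had the highest ND1 relative to ND2, at 148 to 225 per 100 against at most 130. Here the tissues of an animal did not share the profile. The islets of 15LS26 and 12FS161 had 38.8 and 45.4 COX2 counts per 100 of COX1, and the pancreas of 12AS51 had 77.9.

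**Figure D4:**
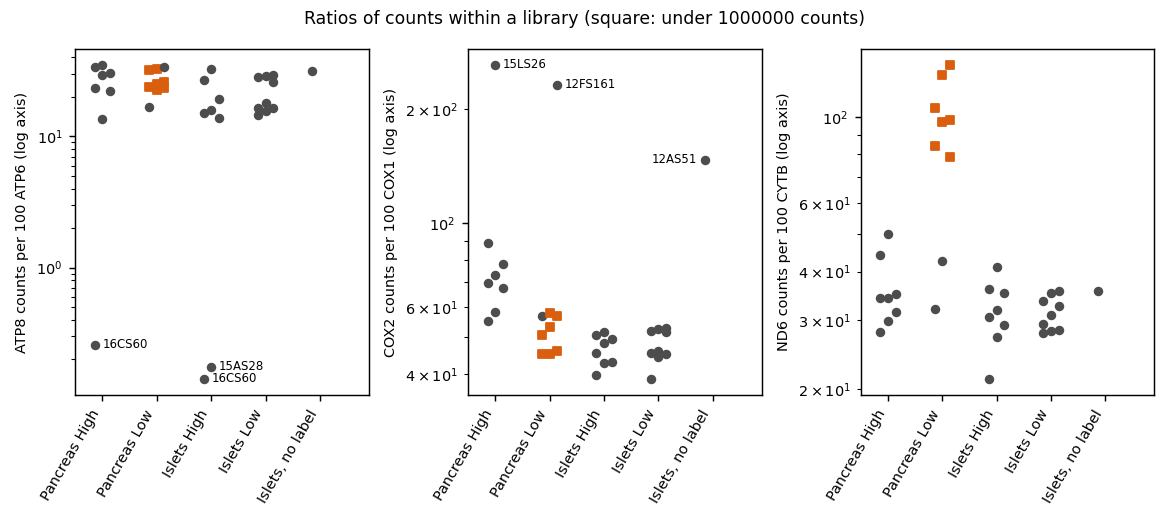
Counts of ATP8 per 100 of ATP6, COX2 per 100 of COX1 and ND6 per 100 of CYTB (y axes, logarithmic) in each library, by tissue and density label (x axis), with shallow libraries as squares. The 3 libraries at the bottom of the ATP8 panel lie between 0.141 and 0.259, the 3 at the top of the COX2 panel between 147 and 261, and the shallow libraries in the ND6 panel between 78.7 and 136.

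High and Low pancreas were compared within the 17 pancreas libraries, to ask what differs in the organ with islet density. Of 25 members tested, 1 was higher in High, 11 were lower and 13 did not pass edgeR's test. Among all 10634 genes tested, 18.8% were higher and 21.5% lower. The median log2 fold change was -0.67 over the 25 members, 0.12 over the 13 protein genes and 0.07 over all genes. None of these calls was seen without the shallow libraries. Without them, 0 of 25 members and 0 of 13217 genes passed with edgeR, which left 8 High and 2 Low libraries. Without the animals of code 14, again 0 of 25 members and 0 of 12844 genes passed. Few Low libraries remained in either setting. The lack of calls there cannot show that the differences came from the libraries left out.

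The higher gene was ATP6. It had 3942 to 10511 CPM in High (median 4860) and 1127 to 5806 in Low (median 2450), with the 7 shallow libraries all below every High library. Its log2 fold change was 1.11 (SE 0.37, adjusted p = 0.019), and 0.57 (SE 0.48, adjusted p = 0.75) without the shallow libraries. ATP8, its neighbour, had 11.9 to 1817 CPM in High (median 1424) and 254 to 1959 in Low (median 603) and did not pass (log2 fold change 0.87, SE 0.51, adjusted p = 0.17). With the lowest High library, 16CS60, left out, ATP8 passed (log2 fold change 1.15, adjusted p = 0.012).

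ND6 was the protein gene that was lower in High. It had 744 to 2166 CPM in High (median 1192) and 1179 to 5695 in Low (median 2183), where the shallow libraries held 1772 to 5695. Its log2 fold change was -1.28 (SE 0.43, adjusted p = 0.021), against 0.14 (SE 0.50, adjusted p = 0.95) without the shallow libraries. Within the members, ND6 stood at 78.7 to 136 counts per 100 of CYTB in the shallow libraries and at 21.2 to 50.0 in the other 28 libraries of both tissues. The strand setting of the counting is not given in the sources used here, so ND6 reads cannot be told apart from reads of the transcript of the other strand. ND4, ND5 and ND6 together made up 33.4% to 43.5% of protein gene counts in the shallow libraries and 15.8% to 27.4% elsewhere. ATP6 made up 3.97% to 6.99% in them and at least 8.41% elsewhere. CYTB, in contrast, held 6.94% to 8.76% in the shallow libraries, inside its range in the other libraries.

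The remaining protein genes did not pass between High and Low pancreas. Their log2 fold changes ran from -0.79 for ND4L (SE 0.39, adjusted p = 0.11) to 0.59 for COX2 (SE 0.42, adjusted p = 0.27). ND3, ND4L, ND4 and ND5 had estimates below 0, and ND1, ND2, COX1, COX2, COX3 and CYTB above 0. Of the 4 with estimates below 0, ND3, ND4 and ND5 turned above 0 without the shallow libraries, none of them passing.

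Both genes of the abundant pair were lower in High. ENSSSCG00000018063 had 28691 to 74987 CPM in High (median 53117) and 56192 to 221900 in Low (median 158299), and the shallow libraries, at 136454 CPM or more, lay above all others. Its log2 fold change was -1.70 (SE 0.44, edgeR adjusted p = 0.0042). ENSSSCG00000018061 had 31435 to 86346 CPM in High and 68264 to 131325 in Low, and its estimate was -1.07 (SE 0.40, adjusted p = 0.037). Without the shallow libraries the values were 0.12 (SE 0.49, adjusted p = 0.95) and -0.10 (SE 0.54, adjusted p = 0.97). The pair had 4.204 to 10.3 counts for each protein gene count in the shallow libraries, and 1.85 to 3.04 in the other pancreas libraries.

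Low-level unnamed members had the largest differences. ENSSSCG00000018073 measured 0 to 13.4 CPM in High and 1.79 to 272 in Low, with the shallow libraries at 134.99 CPM or more. ENSSSCG00000018077 measured 0.556 to 9.70 CPM in High and 36.4 to 160 in the shallow libraries. ENSSSCG00000018068 measured 0 to 3.81 CPM in High and 6.55 to 105 in the shallow libraries. The lowest of these shallow values, in 14HS7 pancreas, was 2 counts and so under the floor of 3. How many of all genes separate High from shallow libraries was not counted. The log2 fold changes of the 3 members were -5.08 (SE 0.75, edgeR adjusted p = 5.2e-05), -4.99 (SE 0.66, adjusted p = 3.6e-05) and -5.13 (SE 0.75, adjusted p = 5.0e-05). All 3 passed the low-count filter mainly through Low libraries, and ENSSSCG00000018068 only through them. Their tests are thus not independent of the filter. The other lower members were ENSSSCG00000018062, ENSSSCG00000018076, ENSSSCG00000018083, ENSSSCG00000018093 and ENSSSCG00000018095, with log2 fold changes between -2.77 and -1.46. A shallow library of 265000 counts gives 11.3 CPM for the floor of 3 counts, so values of a few CPM could not be resolved there.

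**Figure D5:**
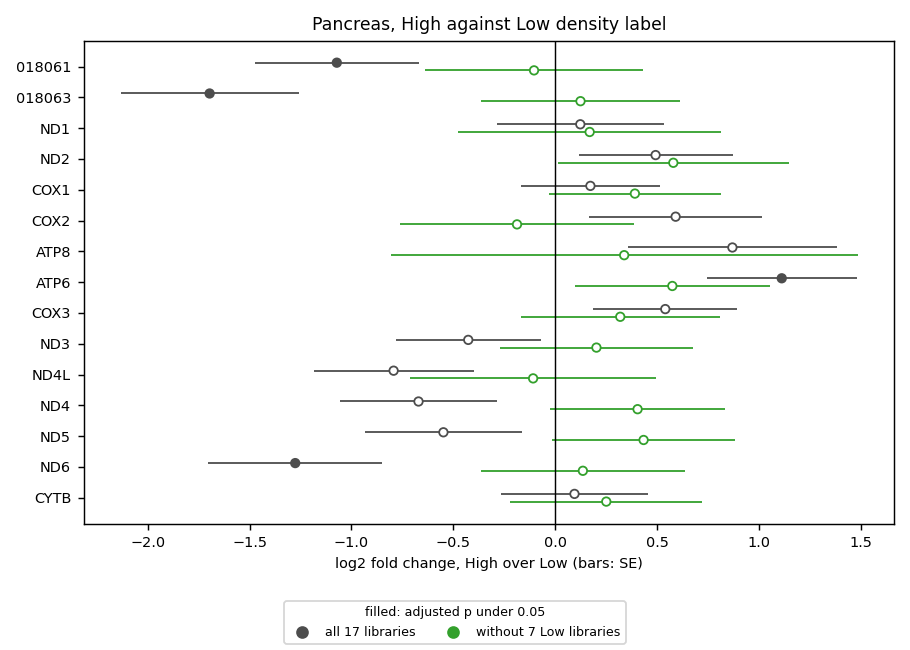
Log2 fold change of High over Low pancreas (x axis, bars show the SE) for the abundant pair, labelled by the end of its identifiers, and the 13 protein genes (y axis), with all 17 libraries and without the 7 shallow Low libraries. ATP6 is at 1.11, ND6 at -1.28 and ENSSSCG00000018063 at -1.70 with all libraries, and no gene passes without the shallow ones.

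In the same fit, 12 of 23 tested nuclear subunits of the respiratory complexes and ATP synthase were higher in High and none lower by edgeR, beside 18.8% and 21.5% of all genes. ATP5F1A (log2 fold change 1.71) and ATP5F1C (1.18), of the catalytic part of ATP synthase, and COX4I1 of complex IV (1.27) were among them. The median of the list was 0.78, above the 0.12 of the mitochondrially encoded protein genes. Of 12 genes of mitochondrial DNA upkeep and transcription none was higher and TWNK was lower by 0.81 on the log2 scale. Of 22 RNA processing genes 5 were higher, with REXO2 at 1.45 and GRSF1 at 1.43, and 3 were lower, with GTPBP3 at -1.62. Of 33 genes of the mitochondrial ribosome and translation 5 were higher and 2 lower, and of 10 regulators 4 were higher and none lower. All 14 tested acinar markers were higher in High, with a median log2 fold change of 2.44, and none was at 0 in either group. Of 15 endocrine markers none was higher and 6 were lower in High by edgeR, with a median of -0.92. Their summed level was nevertheless 662 to 3337 CPM in High and 350.4 to 691 in the shallow libraries, and the deep Low library of 15LS30 had 15736 CPM. Of 6 duct markers 5 were higher and none lower, with sums of 2454 to 4055 CPM in High and 414.7 to 812 in the shallow libraries. Of 6 leukocyte markers 1 was higher and 3 were lower, of 6 endothelial markers 2 were higher and 1 lower, and of 8 fibroblast and stellate markers 2 were lower. The 1 erythroid marker tested was lower (-4.84), and the erythroid sum was 0.556 to 17.3 CPM in High and 24.3 to 60.4 in the shallow libraries. The part of these cell types in the members' differences was not tested. Without the shallow libraries no gene of any list passed, as for all genes.

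High and Low islets were compared within 17 islet libraries, with 26 members tested. None passed after adjustment in either direction, with edgeR or with DESeq2 (which replaced outlier counts of 6 members in 1 library), and among all 12070 genes the share that passed was 0%. At an unadjusted edgeR p of 0.05, 10 members were higher in High and none lower, beside 1.16% of all genes higher and 0.969% lower. Estimates were above 0 for 23 of 26 members, and their median was 0.50, against 0.01 over all genes. The lowest unadjusted p, 0.0035, belonged to ENSSSCG00000018093, with an adjusted p of 0.999.

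ATP6 had 6191 to 20445 CPM in High (median 7755) and 5443 to 8799 in Low (median 6872), with a log2 fold change of 0.69 (SE 0.30, edgeR adjusted p = 0.999). ND5 had 5321 to 10335 CPM in High (median 6444) and 4399 to 6425 in Low (median 5657), and its estimate was 0.52 (SE 0.20, adjusted p = 0.999). ND4 had 4827 to 12103 CPM in High (median 5417) and 3701 to 5652 in Low (median 4376), and its estimate was 0.65 (SE 0.26, adjusted p = 0.999). In all 3 the groups overlapped and the highest High value was that of 15AS28. Without that library the estimates were 0.17 for ATP6, 0.23 for ND5 and 0.21 for ND4. That library also had the highest share of members in its group, 50.4%, and the next High library was at 28.8%. The mean share of members was 28.6% ± 10.4 (SD, n = 8) in High and 25.2% ± 2.18 (SD, n = 9) in Low. The spread within High was therefore wider than the difference between the means. No gene of the 5 nuclear lists passed either, with 13 to 40 tested per list.

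Whether the density difference itself differed between the tissues was tested in 1 model over the 34 libraries with a label. Of 30 members tested, 12 passed, and in all 12 the difference of High over Low was higher in islets than in pancreas. Among all 14337 genes, 22.2% passed in this direction and 17.7% in the other. ND6 was the protein gene among them (difference of log2 fold changes 1.36, SE 0.49, edgeR adjusted p = 0.026). The others were unnamed members of low level. ENSSSCG00000018071 had the largest difference, 6.58 (SE 1.11, adjusted p = 5.9e-05), with 0 to 1.91 CPM in pancreas High and 9.83 to 69.6 in the shallow libraries. Of the main fits, only this one tested it and ENSSSCG00000018060, ENSSSCG00000018070 and ENSSSCG00000018074. All of these were highest in shallow libraries. They passed the low-count filter partly through those values, so their tests are not independent of the filter. The abundant pair did not pass, with ENSSSCG00000018061 at 1.23 (SE 0.69, adjusted p = 0.15) and ENSSSCG00000018063 at 1.55 (SE 0.68, adjusted p = 0.065). COX1 was at 0.01 (SE 0.53). With the animal block, 14 members passed upward and 3 downward, the latter being ATP8 (-1.93), ATP6 (-1.74) and COX3 (-1.33). Without the shallow libraries no member passed with edgeR in either direction, nor without the animals of code 14.

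The 11 members below 10 counts were seen unevenly. ENSSSCG00000018072 was the rarest, with no count in 11 of 18 islet and 10 of 17 pancreas libraries. A median of 36 of 37 members had a count in an islet library and 34 in a pancreas library, and all 37 were seen in the 12AS51 islets among others. The floor of 3 counts corresponds to 0.448 CPM at the greatest depth and 11.3 CPM at the least. For all members, copies of mitochondrial sequence in the nuclear genome can share reads with them. ATP8 and ATP6, ND4L and ND4, and ND5 and ND6 lie next to or over each other. How the authors' counting split such reads is not given in the sources used here, so these counts are uncertain to that extent.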

How the data were processed

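The authors deposited raw read counts as whole numbers, by Ensembl gene, with separate tables for pancreas and islets. Per the submitters' processing notes, FastQC, HISAT2 2.0.2, Subread and edgeR were used and the build was susScr3. The sources used here do not give options, strand setting, annotation release or RNA selection. The animal code in a column name, within its tissue table, identified the sample of 35 columns, out of 37 samples. Another 1 column fitted no sample and was not used. Members and gene lists were chosen with earlier results of these data known.

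Counts were tested as deposited with edgeR 4.0.16 in R 4.3.3: filterByExpr, TMM scaling, robust quasi-likelihood test, two-sided, Benjamini-Hochberg over all genes tested, threshold 0.05. CPM and shares use the full library total, so they can differ in size and sign from fold changes, which use scaled totals. Shares and ratios are descriptions without a p. Shares of single libraries have 95% Wilson intervals. Depth was 265000 to 6702589 counts per library, and the floor was 3 counts. Replicates are separate animals by code. Of 128 pairs of libraries within groups none was identical, with chi-square per degree of freedom at 3.22 or above.

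The labels pair tissues by animal code, and the animal was a block in alternative fits. Over 8455 genes with a mean of at least 10 CPM, deviations from the tissue mean correlated between the tissues of an animal at -0.38 to 0.29 (median 0.00), over 0.1 in 6 of 16 animals. Islets correlated best with their own pancreas in 3 of 16.

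All 37 members are accounted for. Protein genes, the abundant pair and other members with a median of at least 10 counts in a tissue are described. From each nuclear list up to 3 passing genes per direction with the lowest adjusted p were eligible to be named. Alternatives were DESeq2 1.42.0, other scalings, no filter, the animal block and subsets of libraries. The tests were also checked on simulated data, with the same spread for every gene and no library that stood apart. Of 100 genes changed by 1 on the log2 scale, 79 were recovered between tissues. Between High and Low, 18 of 100 were recovered in pancreas and 35 of 100 in islets. Recovery need not be as high for the members, in which some libraries stood apart. A member that did not pass is thus not shown to be unchanged.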

Additional observations from a re-analysis of the deposited data

Results flagged for a closer look

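Of 88 group values examined for a library far from the rest, 21 had one. Chance gives about 1 in 20 for a single group of normal values. These values share libraries and totals, so the 21 are not independent. The 15AS28 islets stood highest among High islets in 10 of them. Their share of members was 50.4% (next 28.8%) and of protein genes 12.3% (next 7.69%). In CPM they held 257373 of ENSSSCG00000018061, 33888 of COX1, 13498 of COX2, 20445 of ATP6, 1803 of ND3, 12103 of ND4, 10335 of ND5 and 11249 of CYTB. The 16CS60 islets stood lowest in that group, with 28176 CPM of ENSSSCG00000018063, 2223 of ND2 and 288 of ND4L. The 16CS60 pancreas stood lowest among High pancreas, with 11.9 CPM of ATP8 (next 1139).

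The 15LS26 pancreas had 261 COX2 counts per 100 of COX1 (next 88.8) and 161.46 ND1 counts per 100 of ND2 (next 96.3) among High pancreas. The 12FS161 pancreas stood out among Low pancreas, with 232 COX2 counts per 100 of COX1 (next 57.8), 15111 CPM of COX2, 1959 of ATP8 and 9168 of COX3. The 14HS26 pancreas was highest in ND3 there, at 1678 CPM.

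The density difference, High over Low, differed between islets and pancreas in 12 members by edgeR's interaction test. Among them, ENSSSCG00000018060, ENSSSCG00000018070, ENSSSCG00000018071 and ENSSSCG00000018074 passed the low-count filter in no other main fit. The differences of log2 fold changes, islets minus pancreas, were 5.73 for ENSSSCG00000018060, 5.60 for ENSSSCG00000018068, 3.89 for ENSSSCG00000018070, 6.58 for ENSSSCG00000018071, 4.47 for ENSSSCG00000018073, 5.18 for ENSSSCG00000018074, 1.90 for ENSSSCG00000018076, 5.22 for ENSSSCG00000018077, 2.85 for ENSSSCG00000018083, 2.47 for ENSSSCG00000018090, 1.36 for ND6 and 3.17 for ENSSSCG00000018093. Their adjusted p ran from 1.6e-05 to 0.026, and none passed without the 7 shallow Low pancreas libraries.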

How the results depend on the processing

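Other scalings left every count of passing members as it was, except the difference of density differences, where relative log expression scaling gave 13 in place of 12 and moved the median of all genes to 0.15. In the comparison of tissues, 9 members higher and 2 lower became 3 and 9 with DESeq2 1.42.0, which replaced the 12AS51 count of 17 members as an outlier. With no low-count filter, 13 were higher and 5 lower of 37 tested. The animal as a replicate block gave 2 and 1, leaving out islets of source name pancreas 0 and 7, leaving out 12AS51 islets and shallow libraries 5 higher, and the block without 12AS51 3 and 4. Without shallow libraries, or without animals of code 14, 0 were lower. Leaving out each library in turn gave 0 to 10 higher and 1 to 7 lower, with 0 and 7 without the 12AS51 islets, and with 1 lower without any 1 of 6 Low pancreas, 2 High islet or 5 Low islet libraries.

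Tissue estimates that turned, on the log2 scale: DESeq2 gave ENSSSCG00000018061 -0.10, ENSSSCG00000018063 -0.97, COX2 -0.17, COX3 -0.45, ND4L -0.88, ND5 -0.44 and ND6 -1.01. Without islets of source name pancreas, ENSSSCG00000018061 was -0.14, ENSSSCG00000018063 -1.03, COX2 -0.23, ND4L -0.97 and ND6 -1.09. The replicate block gave ENSSSCG00000018061 -0.055. The block without 12AS51 gave ENSSSCG00000018061 -0.24, ENSSSCG00000018063 -0.90, COX2 -0.077, ND4L -0.81, ND6 -0.91 and CYTB -0.030. Without 12AS51 islets and shallow libraries, ENSSSCG00000018068 was 1.37, ENSSSCG00000018073 0.23, ENSSSCG00000018077 1.38, COX2 -0.56, ATP6 -0.057, COX3 -0.74, ND4L -0.56 and CYTB -0.018. Without shallow libraries ENSSSCG00000018068 was 1.58, ENSSSCG00000018073 0.89 and ENSSSCG00000018077 1.89, and without code 14 ENSSSCG00000018068 was 1.04 and ENSSSCG00000018073 0.36.

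High against Low pancreas gave 0 higher and 0 lower members without shallow libraries or code 14, in place of 1 and 11. It gave 2 higher with no filter or without 16CS60, and 1 or 2 when libraries were left out in turn. Turned estimates without shallow libraries were ENSSSCG00000018062 0.48, ENSSSCG00000018063 0.12, ENSSSCG00000018073 0.03, ENSSSCG00000018076 0.76, ND6 0.14 and ENSSSCG00000018093 0.60, and without code 14 ENSSSCG00000018062 0.31 and ENSSSCG00000018076 0.057. The difference of density differences gave 0 passing members in both settings, with ENSSSCG00000018073 at -0.32 and ENSSSCG00000018090 at -0.75 without shallow libraries.

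The log2 ratio of the pair to the protein genes, islets minus pancreas, was 0.34 without shallow libraries. High minus Low pancreas it was -0.29 without them and -0.65 without code 14, and the members' share differed by -5.51 percentage points without them. Protein genes as a percent of counts outside the pair differed by 5.88 points between tissues. Of 902 estimates of described members under alternatives, 760 kept direction and side of the threshold, 74 lost it, 26 gained it and 42 turned. The causes were not tested, apart from what each alternative left out. The 4 alternatives that name single animals were chosen after seeing the data. Depth limits members of a few CPM in the shallow libraries.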
